A study of Mus musculus with 12 samples.

Results

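The lipid handling genes described here are 9 genes chosen by symbol from the 54532 genes of the deposited count table: the nuclear receptors Pparg and Nr1h3, the uptake genes Lpl and Cd36, the fatty acid carriers Fabp4 and Fabp5, the droplet coat Plin2 and the sterol exporters Abca1 and Abcg1. Each symbol matched 1 row, and all 9 genes passed the filter on low counts. RNA was measured in 12 libraries of B16F10 tumours. B16F10 is a pigmented mouse melanoma line, and its wild-type cells were injected into the skin of each of the 2 legs of male hosts that were 8 to 12 weeks old. Every host carried R26CreERT2 on 1 copy of the locus (ki/wt), a Cre recombinase that tamoxifen switches on, expressed from the Rosa26 locus and so not tied to 1 cell type. The 6 Ctrl libraries came from Trex1 wt/fl hosts, which keep 1 intact copy of this DNA exonuclease gene, and the 6 iKO libraries from Trex1 fl/fl hosts. Tamoxifen (1 mg, given to both groups on 3 successive days) was started on day 5, and the harvest followed on day 14. The cell type label describes sorted cells negative for CD45 (leukocytes) and CD31 (endothelium), whereas the protocol joins the markers with "or". No label ties a library to a mouse, so p-values here reflect how far the libraries spread, and that spread may be technical.

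Cells take up fatty acids that lipoprotein lipase frees from circulating triglyceride, pass them on through CD36 and the fatty acid binding proteins, and store the surplus in droplets coated by perilipin 2. The nuclear receptor PPARγ senses fatty acids and switches on uptake and storage genes, while LXRα (encoded by Nr1h3) senses oxidised sterols and switches on the exporters ABCA1 and ABCG1, which hand cholesterol to lipoproteins. In tumours this set is best known from macrophages, which load and unload lipid, although fatty acid binding proteins, CD36 and lipoprotein lipase are also made by endothelium, fat cells and some melanoma cells.

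Libraries held 29.8 to 45.8 M counts, and a count of 0 allows up to 0.0655 to 0.101 CPM (counts per 1000000 counts of the library, with TMM-scaled totals in all that follows and 3 counts as the limit, for counting error only). No library of the 12 had a Trex1 count (0 in all, Ctrl included), which leaves the host genotype unchecked. Whether Trex1 RNA was absent or was not counted in the deposited table was not tested. Pigment cell markers were abundant in every library, with a summed level of 22671 to 23058.5 CPM in Ctrl and 15728.5 to 22574.8 CPM in iKO. Leukocyte transcripts were present despite the sort: 13 of 14 macrophage and monocyte markers and 9 of 10 leukocyte markers were higher in iKO, beside 25.0% of all tested genes. The macrophage markers summed to 20.1 to 45.6 CPM in the Ctrl libraries other than Ctrl 5 and to 331 CPM in Ctrl 5. They summed to 236 CPM in iKO 1 and to 1240.6 to 2132 CPM in the other iKO libraries. Ctrl 5 and iKO 1 thus lay between the others. None of the 14 markers was at 0 counts over a whole group, but some had 0 counts in a Ctrl library. Xist, made in female cells, was at 219 CPM of the library total in iKO 2 and 117 in iKO 3, although the labels give male mice. These libraries held 44 and 0 counts of Y-linked genes, against 107 to 254 in Ctrl, 239 in iKO 1 and 1298 to 1513 in iKO 4, 5 and 6. Xist was at 8.29 CPM in iKO 4. Results are therefore also given without Ctrl 5 and iKO 1 and without iKO 2 and iKO 3. In sorted bulk tissue, fewer cells of a type and less RNA per cell cannot be told apart.

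Promoter windows (250 bases before to 50 after a transcript start, from RefSeq, GRCm38.p6) were given for 5 of the 9 genes, in 8 windows: Abca1, Cd36, Nr1h3, Plin2 and Pparg. Those of Abca1, Cd36, Plin2 and the first start of Pparg are shown because these genes rose together and hold a match to a searched motif: the hexamer AGGTCA, to which PPAR and LXR dimers with RXR bind in pairs, or the E-box CACGTG. Capitals mark AGGTCA on either strand in Cd36, Plin2 and Pparg, and CACGTG in Plin2 and Abca1. Only exact copies of the motifs were searched, so imperfect copies are neither marked nor counted.
Abca1, chr4:53159846-53160145, minus strand: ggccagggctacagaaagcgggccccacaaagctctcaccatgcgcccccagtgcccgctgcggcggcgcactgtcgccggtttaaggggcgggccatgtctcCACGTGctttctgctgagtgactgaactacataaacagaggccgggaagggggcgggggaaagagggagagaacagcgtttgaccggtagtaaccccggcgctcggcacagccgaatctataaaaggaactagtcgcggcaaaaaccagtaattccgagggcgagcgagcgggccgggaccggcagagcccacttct
Cd36, chr5:17835847-17836146, minus strand: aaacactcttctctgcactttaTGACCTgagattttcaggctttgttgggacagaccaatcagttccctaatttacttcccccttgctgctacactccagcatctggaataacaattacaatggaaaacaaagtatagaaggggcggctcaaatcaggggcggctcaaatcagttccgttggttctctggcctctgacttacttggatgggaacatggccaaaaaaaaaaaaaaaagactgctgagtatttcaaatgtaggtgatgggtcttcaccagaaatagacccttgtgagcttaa
Plin2, chr4:86670010-86670309, minus strand: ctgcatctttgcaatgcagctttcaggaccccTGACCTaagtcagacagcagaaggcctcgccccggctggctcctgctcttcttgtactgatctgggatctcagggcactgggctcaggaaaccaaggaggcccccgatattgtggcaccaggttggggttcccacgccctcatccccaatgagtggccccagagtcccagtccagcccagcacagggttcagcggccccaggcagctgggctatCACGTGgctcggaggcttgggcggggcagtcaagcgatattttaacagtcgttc
Pparg, chr6:115360894-115361193, plus strand: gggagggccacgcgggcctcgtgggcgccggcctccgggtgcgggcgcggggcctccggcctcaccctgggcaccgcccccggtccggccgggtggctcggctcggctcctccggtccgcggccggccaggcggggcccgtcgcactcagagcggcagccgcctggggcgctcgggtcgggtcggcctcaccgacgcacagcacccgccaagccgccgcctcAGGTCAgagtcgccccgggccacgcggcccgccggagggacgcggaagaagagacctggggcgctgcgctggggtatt
AGGTCA, on either strand, stood in 16.3% of all 32851 windows of this length and in 4 of the 8 windows here (Cd36, Plin2 and 2 of the 3 Pparg starts), and CACGTG in 7.15% of all windows. The spaced pairs AGGTCANAGGTCA and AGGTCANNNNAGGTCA, which contain the hexamer, stood in 0.0396% and 0.0152% of all windows and in 0 of the 8. Neither Nr1h3 window held any of the motifs. Exact spaced pairs are so rare over all windows that their absence from the 8 says nothing about imperfect pairs. A match is a description of letters, not of binding.

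Of the 9 lipid handling genes, 8 were higher in iKO than in Ctrl and none was lower (edgeR quasi-likelihood test, adjusted p below 0.05 over 16164 tested genes). Across all tested genes 25.0% were higher and 21.4% lower, or 46.4% in either direction. Fabp5 alone did not pass. The median log2 fold change of the 9 was 3.61, beside 0.023 over all tested genes, and 7 of the 9 rose by a log2 fold change of at least 1, as did 11.7% of all tested genes. The 9 were chosen with earlier results of these data known, so these shares are no independent comparison. In 3 genes, Abca1, Abcg1 and Nr1h3, every iKO library lay above every Ctrl library, which held for 11.8% of all tested genes (22.9% did not overlap in either direction). In Pparg, Lpl, Fabp4, Cd36 and Plin2 the ranges overlapped only through iKO 1, which lay below Ctrl 5, and 5 of the 6 iKO libraries lay above every Ctrl library.

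**Figure D1:**
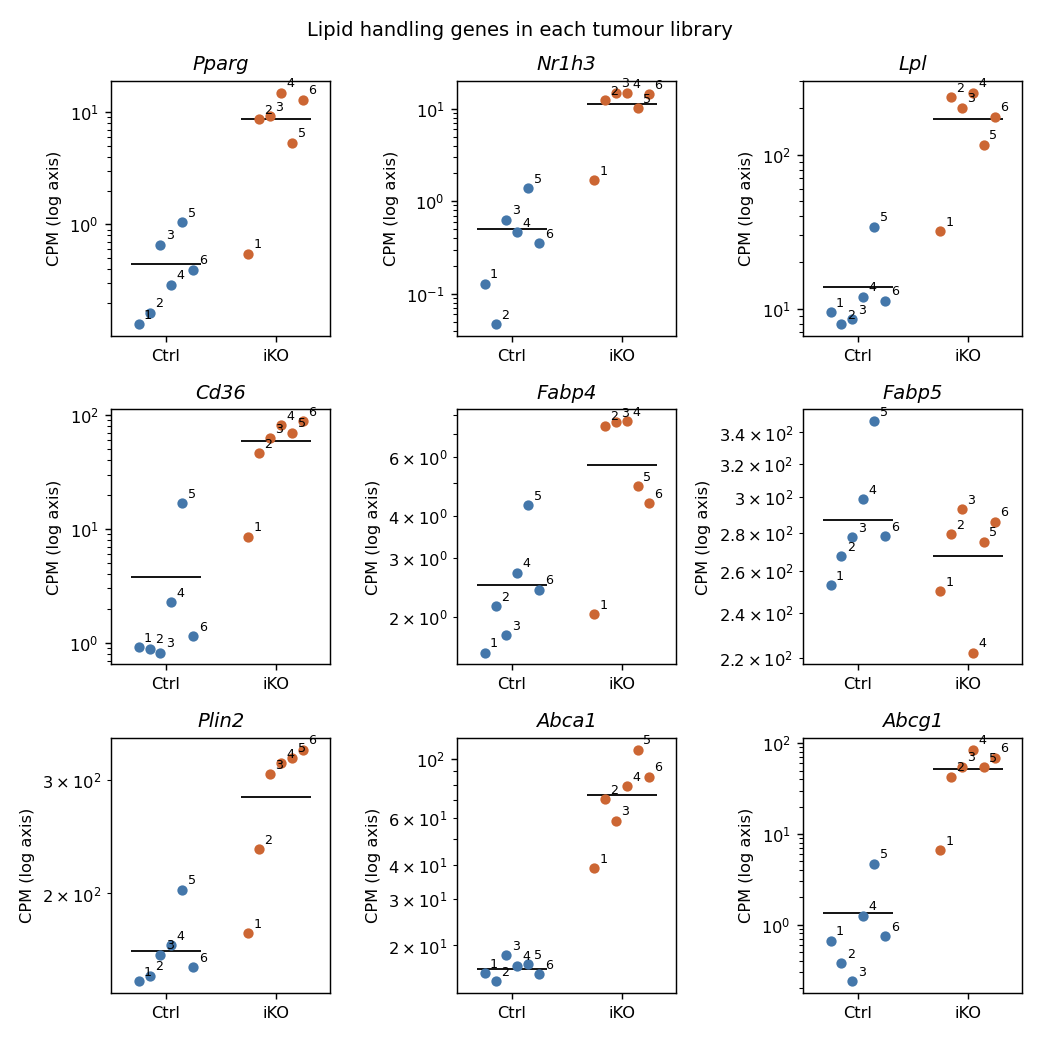
CPM (TMM-scaled, log axis, a scale for each panel) of the 9 lipid handling genes in each library, with the replicate number beside each point and the group mean as a line. Abca1, Abcg1 and Nr1h3 are above every Ctrl library in all 6 iKO libraries, Fabp5 overlaps throughout, and Ctrl 5 and iKO 1 lie between the other libraries in most panels.

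The receptor genes had few counts in Ctrl, and Nr1h3 in Ctrl 2 was under the limit that 3 counts set. Pparg (ENSMUSG00000000440, mm10 chromosome 6, 115360951 to 115490399), the fatty acid sensor, had 6 to 38 counts in each Ctrl library and 17 to 441 in iKO. Its level was lowest at 0.128, median 0.343 and highest at 1.05 CPM in Ctrl, and 0.549, 8.97 and 14.98 CPM in iKO. iKO 1 was the low library, below Ctrl 3 and Ctrl 5, and iKO 4 and iKO 6 were the high ones. Pparg rose by a log2 fold change of 4.28 ± 0.75 (SE), or 19.4-fold (edgeR, adjusted p = 0.000880), and iKO was above the Ctrl median in 6 of 6 libraries. Nr1h3 (ENSMUSG00000002108, chromosome 2, 91184061 to 91202834), the LXRα gene, ran from 0.0467 (2 counts) through a median of 0.408 to 1.38 CPM in Ctrl and from 1.68 through 13.3 to 14.9 CPM in iKO. No iKO library reached down into the Ctrl range, although iKO 1 lay just above it. Nr1h3 rose by 4.51 ± 0.74, or 22.8-fold (edgeR, adjusted p = 0.000603), and 5.15 without Ctrl 5. Of the exon bases of Nr1h3 1.35% are shared with Gm13783. The dimer partners and the close relatives of these receptors moved less. Rxra and Rxrb, the shared dimer partners, had log2 fold changes of 0.053 and -0.032. Among the relatives, Nr1h2, which encodes LXRβ, had 0.39, Ppard -0.0029 and Ppara -0.29, the last at 0.417 CPM in Ctrl. Of all these Nr1h2 alone passed. These partners and relatives were named after their values were seen.

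The uptake genes Lpl and Cd36 both rose. Lpl (ENSMUSG00000015568, chromosome 8, 68880491 to 68907448) encodes the lipase that frees fatty acids from lipoproteins. It ran from 7.90 through a median of 10.4 to 34.1 CPM in Ctrl and from 31.8 through 189 to 253 CPM in iKO. Ctrl 5 and iKO 1 were nearly level, at 34.1 and 31.8 CPM, and all other libraries of the groups were apart, at 11.97 CPM or less and 116 CPM or more. On the log2 scale Lpl rose by 3.61 ± 0.57, or 12.2-fold (edgeR, adjusted p = 0.000575). Cd36 (ENSMUSG00000002944, chromosome 5, 17781690 to 17888801) encodes a fatty acid and oxidised lipoprotein receptor. It ran from 0.817 through 1.03 to 16.7 CPM in Ctrl and from 8.56 through 66.2 to 88.2 CPM in iKO. The highest Ctrl value was Ctrl 5, with 607 counts against 31 to 78 in the other Ctrl libraries, and it exceeded iKO 1. Cd36 rose by 3.98 ± 0.96, or 15.8-fold (edgeR, adjusted p = 0.00654), or 5.65 without Ctrl 5.

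The pair of fatty acid binding proteins did not move alike. Fabp4 (ENSMUSG00000062515, chromosome 3, 10204088 to 10208576), the carrier of fat cells, macrophages and capillary endothelium, ran from 1.56 through 2.28 to 4.30 CPM in Ctrl and from 2.04 through 6.17 to 7.67 CPM in iKO. iKO 1 lay within the Ctrl range and below its median, and iKO 2, 3 and 4 were the highest. Fabp4 rose by 1.19 ± 0.32, or 2.29-fold (edgeR, adjusted p = 0.00774), with iKO above the Ctrl median in 5 of 6 libraries. Fabp5 (ENSMUSG00000027533, chromosome 3, 10012548 to 10016607), the epidermal carrier and a near neighbour of Fabp4 on the same chromosome, was the most abundant of the 9 in Ctrl. It ran from 253 through 278 to 348 CPM in Ctrl and from 222 through 277 to 293 CPM in iKO. The ranges overlapped, with Ctrl 5 the highest and iKO 4 the lowest library. The log2 fold change was -0.10 ± 0.08 (edgeR, adjusted p = 0.346). Pseudogene copies of Fabp5 listed in the table held 3 and 0 counts over all 12 libraries, so few reads were assigned to them.

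Plin2 and Abca1 rose from levels that were already measurable in every Ctrl library. Plin2 (ENSMUSG00000028494, chromosome 4, 86648386 to 86670060), the coat of lipid droplets in most cells, ran from 146 through 157 to 203 CPM in Ctrl and from 174 through 312 to 334 CPM in iKO. It overlapped in iKO 1 alone. Plin2 rose by 0.79 ± 0.15, or 1.73-fold (edgeR, adjusted p = 0.00101). Abca1 (ENSMUSG00000015243, chromosome 4, 53030787 to 53159895), which loads cholesterol onto lipid-poor apolipoprotein, was tight in Ctrl, from 14.7 through 16.3 to 18.4 CPM, and ran from 39.0 through 74.8 to 109 CPM in iKO. The lowest iKO library, iKO 1, was 2.29 times Ctrl 5 and above every Ctrl library. Abca1 rose by 2.17 ± 0.20, or 4.50-fold (edgeR, adjusted p = 8.68e-06), the smallest adjusted p of the 9. Abcg1 (ENSMUSG00000024030, chromosome 17, 31057698 to 31115777), which exports cholesterol to mature lipoprotein, ran from 0.237 through 0.704 to 4.72 CPM in Ctrl and from 6.66 through 54.8 to 85.2 CPM in iKO. The groups did not overlap, but Ctrl 5 and iKO 1 were neighbours. The log2 fold change of 5.32 ± 0.85, or 39.8-fold (edgeR, adjusted p = 0.000634), was the largest of the 9 and went to 6.34 without Ctrl 5.

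Leaving out the libraries that stand apart kept all 8 calls. For these 8 genes iKO 1 was the lowest iKO library, and Ctrl 5 was the highest Ctrl library in all but Abca1. Removing this pair therefore widens the gap between the groups by its choice, so the calls kept without it are no independent support. Without Ctrl 5 and iKO 1 the log2 fold changes were 4.98 for Pparg, 5.39 for Nr1h3, 4.34 for Lpl, 5.89 for Cd36, 1.61 for Fabp4, 0.98 for Plin2, 2.33 for Abca1 and 6.58 for Abcg1, with edgeR adjusted p of 4.95e-05 or less, and -0.0018 for Fabp5. Without iKO 2 and iKO 3 they were 4.25, 4.36, 3.38, 4.05, 0.94, 0.82, 2.26 and 5.36 in the same order, and Fabp4 came closest to the threshold (edgeR, adjusted p = 0.0475).

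The calls did not hold once the leukocyte score, the mean log2 CPM of the 10 leukocyte markers, was added to the model. Calls over all tested genes also fell under that model, from 4037 higher and 3464 lower to 973 and 1049. The log2 fold change was then 0.035 for Pparg, 0.71 for Nr1h3, 0.40 for Lpl, 0.68 for Abcg1 and 1.29 for Abca1 (edgeR, adjusted p = 0.0663 for Abca1 and 0.207 or more for the others). It was -0.15 for Plin2 and -0.75 for Fabp4, both without a call, and -0.72 for Cd36, which was called lower (edgeR, adjusted p = 0.0468). The score was 0.801 to 2.19 in the Ctrl libraries other than Ctrl 5 and 6.57 to 7.33 in the iKO libraries other than iKO 1, so the adjustment rests mainly on Ctrl 5 (4.33) and iKO 1 (4.13). With the endothelial score as covariate all 8 calls held, with a log2 fold change of 1.92 for Abca1 and 1.11 for Fabp4. That score overlapped between the groups, at 1.20 to 1.69 in Ctrl and 1.21 to 2.36 in iKO. It could therefore take up little of their difference.

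**Figure D2:**
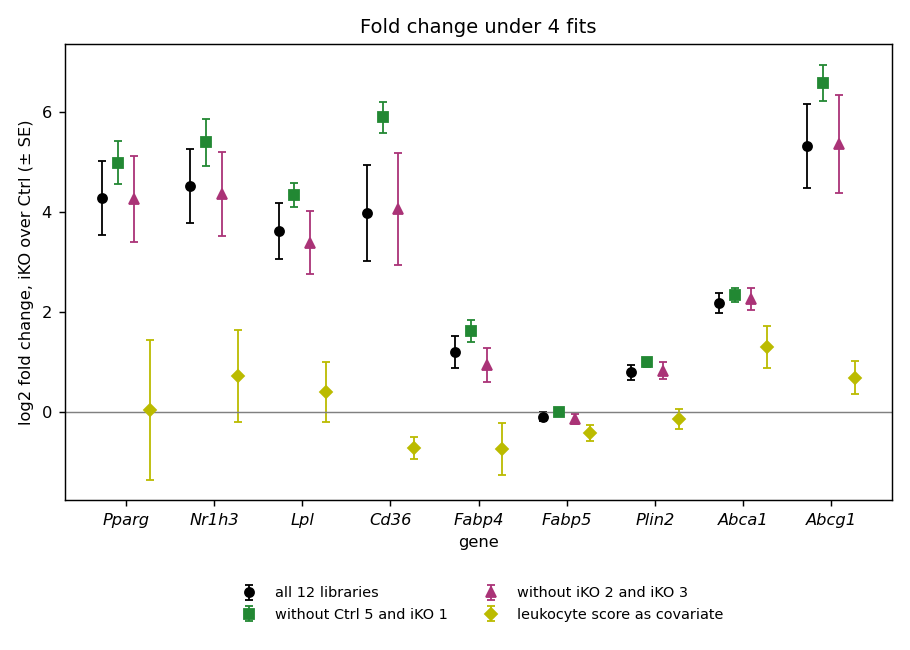
Log2 fold change (iKO over Ctrl, bars ± SE) of each gene with all 12 libraries, without Ctrl 5 and iKO 1, without iKO 2 and iKO 3, and with the leukocyte score as covariate. The first 3 fits lie above 0 for 8 genes, most apart in Cd36 (3.98, 5.89 and 4.05), and near 0 for Fabp5, and the fourth is lower for every gene, at 1.29 for Abca1 and at -0.72 for Cd36.

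Set beside the macrophage markers library by library, the 9 genes differed. Cd36 was at 3.91 to 5.11 CPM per 100 CPM of summed macrophage markers in Ctrl and at 3.63 to 4.597 in iKO. Its ratio thus stayed within a 1.41-fold range over the 12 libraries while its CPM spanned 108-fold. Abcg1 ran from 1.18 to 3.34 per 100 CPM in Ctrl and from 2.83 to 4.00 in iKO, a 3.38-fold range against a 359-fold range in CPM. Nr1h3 and Pparg had overlapping ratios, with medians of 0.783 and 0.680 in Ctrl and 0.700 and 0.640 in iKO. Lpl ran from 10.3 to 50.6 per 100 CPM in Ctrl and from 7.65 to 19.0 in iKO, and Fabp4 from 1.30 to 10.8 and from 0.208 to 0.864. These ratios share their denominator and rest on few counts in Ctrl for the receptor genes.

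Fabp5, Plin2, Fabp4, Abca1 and Lpl varied less than the macrophage markers, which summed to 20.1 to 2132 CPM over the 12 libraries. Their CPM ranges were 1.57-fold, 2.28-fold, 4.91-fold, 7.40-fold and 32.0-fold in this order. Fabp5 was at 348 CPM in Ctrl 5 and 250 CPM in iKO 1, and Plin2 at 203 and 174 CPM. The ratios of Fabp5 and Plin2 to the markers fell from medians of 1127.8 and 640 per 100 CPM in Ctrl to 19.6 and 20.2 in iKO. Those of Fabp4, Abca1 and Lpl fell from 7.72, 65.8 and 37.6 to 0.454, 4.95 and 12.7. Abca1 was at 17.0 CPM in Ctrl 5, close to the median of 15.7 CPM over the other Ctrl libraries, although the macrophage markers were at 331 CPM there. In iKO 1, with fewer macrophage marker counts (236 CPM), Abca1 was at 39.0 CPM. Over the same pair of libraries Abcg1 was at 4.72 and 6.66 CPM, Nr1h3 at 1.38 and 1.68, Lpl at 34.1 and 31.8, Fabp4 at 4.30 and 2.04, Pparg at 1.05 and 0.549 and Cd36 at 16.7 and 8.56. This is 1 library of each group, so it carries no test.

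**Figure D3:**
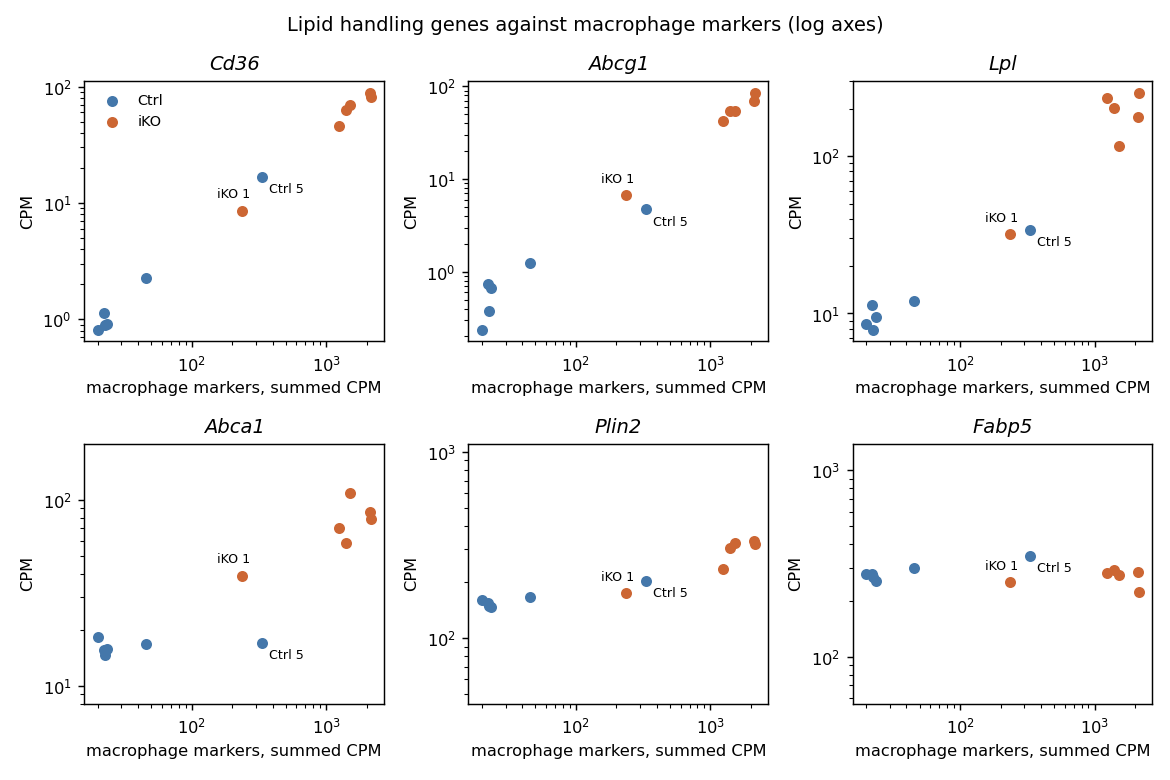
CPM of 6 of the genes (log axis) against the summed CPM of 14 macrophage and monocyte markers (log axis) in each of the 12 libraries. Cd36 and Abcg1 climb along with the markers in both groups, Fabp5 stays between 222 and 348 CPM, and Abca1 in Ctrl 5 lies at 17.0 CPM, level with the other Ctrl libraries.

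Markers of other cell types had smaller median log2 fold changes than the leukocyte (5.04) and macrophage (4.39) markers. Over all tested genes 25.0% were higher and 21.4% lower. Of 10 endothelial markers 3 were higher (Pecam1, Kdr and Tek) and Egfl7 was lower, with a median log2 fold change of 0.20 and a summed level of 54.5 to 58.4 CPM in Ctrl and 45.5 to 95.2 CPM in iKO. Pecam1, the CD31 gene, had a log2 fold change of 1.38, Kdr of 2.54, Tek of 1.80 and Egfl7 of -0.73, and the call of Tek was lost without iKO 2 (edgeR, adjusted p = 0.0612) or iKO 5 (0.0592). Fat cell markers were at or near 0: Adipoq, Lep and Retn had 0 counts in Ctrl and 18, 4 and 7 in iKO, and the 8 markers summed to 1.64 to 3.34 CPM in Ctrl and 2.52 to 9.55 CPM in iKO. Only Lipe of the 8 passed the filter, and it is also a lipolysis gene. Of 8 fibroblast markers 2 were higher (Pdgfrb and Thy1, log2 fold change 1.196 and 1.75) and 6 were not called, with a median of 1.23. The 8 summed to 2279 to 2602.5 CPM in Ctrl and 635 to 14736.5 CPM in iKO. Within iKO the sum was highest in iKO 2 (14736.5 CPM) and iKO 5 (10186.5 CPM). Pigment cell markers were lower in 7 of 8 cases. The part of these cell types in the 8 rises was not tested beyond the leukocyte and endothelial scores. Except for Pecam1, these genes were named after their values were seen.

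Within a library, ratios of gene pairs do not depend on the library's scaling, apart from the prior count of 2. With a prior count of 0.5 the calls were the same. The differences were then -3.56 for Abca1 over Abcg1, 1.23 for Fabp4 over Fabp5, 1.21 for Cd36 over Lpl and -0.75 for Pparg over Nr1h3. Abca1 over Abcg1 fell from a mean log2 ratio of 4.23 ± 1.41 in Ctrl to 0.76 ± 0.96 in iKO (SD, n = 6), a difference of -3.47 (exact two-sided permutation test over 924 assignments, adjusted over 4 pairs, p = 0.0173). The groups overlapped only at Ctrl 5 (1.84) and iKO 1 (2.54). Fabp4 over Fabp5 rose from -6.89 ± 0.36 to -5.67 ± 0.74 (SD, n = 6), a difference of 1.22 (exact permutation test, adjusted p = 0.0173), with iKO 1 at -6.90 inside the Ctrl range. So Abcg1 rose more than Abca1, and Fabp4 more than Fabp5. Cd36 over Lpl rose from -2.72 ± 0.90 to -1.55 ± 0.59 (SD, n = 6), a difference of 1.17 (exact permutation test, adjusted p = 0.0317). Its call was lost when 1 library was left out, namely Ctrl 1 (exact permutation test, adjusted p = 0.0664), Ctrl 2 (0.0635), Ctrl 3 (0.0664), Ctrl 6 (0.0664) or iKO 5 (0.0635), and Ctrl 5, at -1.02, lay above 4 of the 6 iKO libraries. Pparg over Nr1h3 differed by -0.68 and did not pass (exact permutation test, adjusted p = 0.0584), on 2 to 50 counts per gene and Ctrl library. It passed without Ctrl 4 (exact permutation test, adjusted p = 0.0346), iKO 4 (0.0346) or iKO 6 (0.0498).

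**Figure D4:**
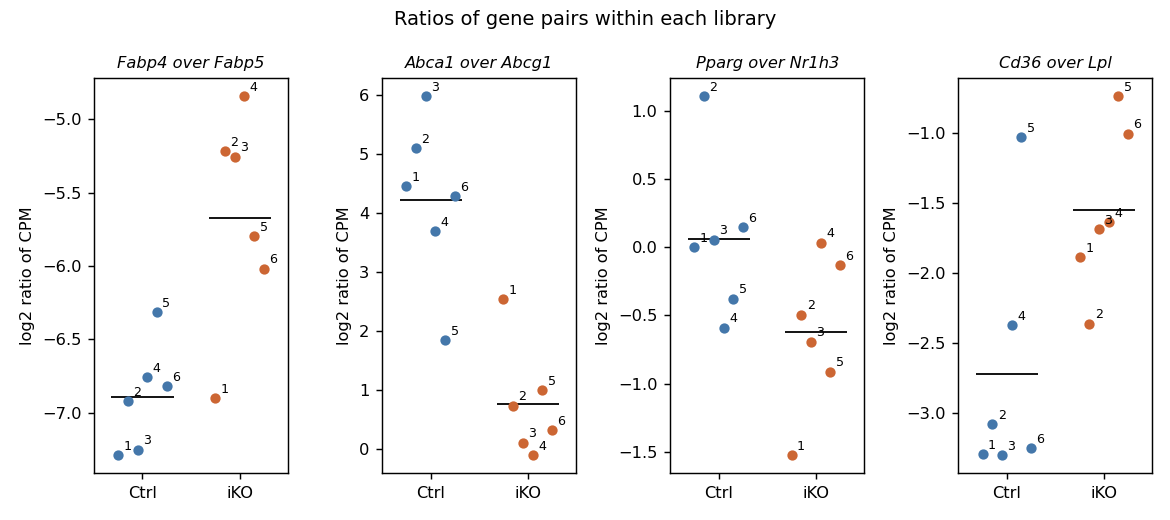
Log2 ratio of CPM (prior count 2) of 4 gene pairs within each library, with the replicate number beside each point and the group mean as a line. The mean of Abca1 over Abcg1 goes from 4.23 to 0.76 and that of Fabp4 over Fabp5 from -6.89 to -5.67, and in these pairs Ctrl 5 and iKO 1 lie toward the other group, while in Pparg over Nr1h3 iKO 1 is the lowest library, at -1.52.

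Per kilobase of gene model the 9 genes differed widely in level. In Ctrl, Fabp5 (80.5 ± 9.31 CPM per kb) and Plin2 (46.5 ± 5.91) stood far above Abca1 (1.58 ± 0.126), Lpl (1.32 ± 0.958), Cd36 (1.06 ± 1.77), Fabp4 (0.553 ± 0.219), Abcg1 (0.327 ± 0.417), Nr1h3 (0.199 ± 0.191) and Pparg (0.152 ± 0.119; SD, n = 6 for each). From Abca1 down, each gene's range over libraries overlapped that of the next. In iKO the order was Plin2 (80.2 ± 18.2), Fabp5 (75.0 ± 7.50), Cd36 (16.6 ± 8.07), Lpl (16.1 ± 7.91), Abcg1 (12.8 ± 6.56), Abca1 (7.11 ± 2.30), Nr1h3 (4.50 ± 2.01), Pparg (2.92 ± 1.76) and Fabp4 (1.26 ± 0.513). Here Plin2 and Fabp5 overlapped, and so did each pair of neighbours from Cd36 down. Cd36 thus moved from the fifth place to the third, and Fabp4 from the sixth to last. Lengths are those of the deposited table, which for 8 of the genes equal all exon bases of GENCODE M21. For Abcg1 the table has 4066 bases and GENCODE 7298, which would put it at 0.182 CPM per kb in Ctrl and 7.16 in iKO.

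The counts of each list below stand beside 25.0% higher and 21.4% lower over all tested genes. Among other genes of fatty acid uptake and lipoprotein hydrolysis, 7 of 15 tested were higher and 3 lower, with a median log2 fold change of 0.22. Acsl1, which activates fatty acids, rose by 0.80 ± 0.10 (SE), and Pltp, which transfers phospholipid between lipoproteins, by 3.01 ± 0.44. Acsl3, which activates fatty acids for droplet growth, changed by -0.57 ± 0.08 and Fabp7, a brain and melanoma carrier, by -0.92 ± 0.16. Of the genes that work with Lpl, named after their values were seen, Gpihbp1, which anchors it to capillaries, had a log2 fold change of -0.39 ± 0.50 (adjusted p = 0.553 by edgeR). Lmf1, which folds it, had -0.22 and lost its call when Ctrl 1, 2, 3, 4 or 5 or iKO 2, 4 or 5 was left out (edgeR, adjusted p from 0.0528 to 0.123). Lipg, a related lipase, rose by 5.23 ± 0.86, with iKO at 33.9 ± 35.3 CPM (SD, n = 6), and by 4.52 without iKO 4. With the leukocyte score 0 of the 15 genes were called in either direction (edgeR, adjusted p = 0.138 for Acsl1, 0.499 for Pltp, 0.264 for Acsl3, 0.393 for Fabp7 and 0.851 for Lipg).

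Of 8 tested lipoprotein and scavenger receptors 4 were higher and 1 lower, with a median of 1.31. Lrp1, a large endocytic receptor, rose by 2.61 ± 0.27 (SE), with means of 79.2 ± 9.73 CPM in Ctrl and 484 ± 175 CPM in iKO (SD, n = 6). Sorl1, a sorting receptor, rose by 6.81 ± 0.83 (7.75 without Ctrl 5) and Msr1, the macrophage scavenger receptor, by 4.98 ± 1.23 (7.44 without Ctrl 5). The other that rose was Stab1, a scavenger receptor named after its value was seen, by 3.48 (5.31 without Ctrl 5). Vldlr, which takes up triglyceride-rich lipoprotein, changed by -0.71 ± 0.13. With the leukocyte score Sorl1 alone of the 8 was called, Lrp1 was at 1.67 (edgeR, adjusted p = 0.145), and Msr1 and Stab1 were at -0.39 and -0.93 without a call.

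The droplet and lipolysis list had 7 of 17 tested genes higher and 1 lower, with a median of 0.17. Pnpla2, the first lipase of stored fat, rose by 0.58 ± 0.06, Lipa, the lysosomal lipase, by 0.55 ± 0.07, Lipe, the hormone-sensitive lipase, by 1.46 ± 0.29 and Bscl2 (seipin), a droplet assembly protein, by 0.42 ± 0.11. G0s2, an inhibitor of the lipase that Pnpla2 encodes, named after its value was seen, changed by -1.02 and lost its call without Ctrl 4 (edgeR, adjusted p = 0.0507). Plin3, the other abundant perilipin, was at 268 ± 7.78 CPM in Ctrl and 257 ± 31.7 CPM in iKO (SD, n = 6). It changed by -0.059 on the log2 scale without a call (adjusted p = 0.527 by edgeR) and was named after its value was seen. Plin1, Plin4 and Plin5 and Cidea, Cideb and Cidec did not pass the filter. Of the exon bases of Lipe 15.6% and of Bscl2 10.8% are shared with other genes. With the leukocyte score 3 of the 17 were higher, of which Lipa alone was among the 7, and 0 lower.

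LXR partners, targets and sterol efflux genes were higher in 11 of 16 tested cases and lower in 1, with a median of 0.42. Abca7, a relative of Abca1, rose by 0.63 ± 0.11, Mylip, which degrades the LDL receptor, by 0.55 ± 0.10, and Npc1, which releases lysosomal cholesterol, by 0.38 ± 0.06. Ch25h, which makes an oxysterol, rose by 4.98 ± 0.86 and by 6.22 without Ctrl 5. Of other LXR targets in the list, Arl4c, a small GTPase, rose by 3.57 (4.71 without Ctrl 5), and Smpdl3a, a phosphodiesterase, had 0.24 and lost its call without iKO 5 (edgeR, adjusted p = 0.0504). Cyp27a1, which makes an oxysterol, rose by 3.89 (5.14 without Ctrl 5). Srebf1, a lipogenic factor (-0.040 ± 0.059), and Apoe, a sterol acceptor (0.064 ± 0.130, and 764 ± 148 CPM in Ctrl), did not pass. Lpcat3, a phospholipid remodelling enzyme and LXR target, changed by -0.22 and lost its call without Ctrl 2, Ctrl 3 or iKO 5 (edgeR, adjusted p = 0.0883, 0.0727 and 0.0544). With the leukocyte score 4 of the 16 were higher, Npc1 and Mylip among them, and 0 lower. Ch25h, Arl4c, Smpdl3a, Cyp27a1, Srebf1, Apoe and Lpcat3 were named after their values were seen.

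In the list of PPAR relatives, cofactors and targets 5 of 11 tested genes were higher and none lower, with a median of 0.21. The factors that act with PPARγ in fat cells and macrophages rose: Cebpa by 3.78 ± 0.81 (4.92 without Ctrl 5) and Cebpb by 1.47 ± 0.25. The coactivator Ncoa1 rose by 0.72 ± 0.09 and Ucp2, a mitochondrial carrier, by 4.15 ± 0.67 (4.94 without Ctrl 5). The last of the 5, Med1, a coactivator subunit named after its value was seen, had 0.21 and lost its call without iKO 4 (edgeR, adjusted p = 0.0537). With the leukocyte score Ncoa1 and Med1 were the 2 that were higher. Of the exon bases of Cebpb 20.7% lie within Tmem189, as 19.3% of those of Pltp do within Ctsa.

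Of 18 tested fatty acid oxidation genes 11 were lower and 1 higher, with a median of -0.21. In the same libraries 7 of 8 pigment cell markers were lower (median -0.40) and 9 of 10 leukocyte markers higher (median 5.04), and their part in this was not tested apart from the leukocyte score. With that score in the model 1 of the 18, Acads, was lower and 1, Cpt1a, higher, at a median of -0.22, and Etfdh, Etfa and Hadh lost their calls (edgeR, adjusted p = 0.306, 0.0670 and 0.254). The electron carriers Etfdh and Etfa changed by -0.36 ± 0.06 and -0.32 ± 0.06, and the dehydrogenase Hadh by -0.39 ± 0.08. The 1 gene that rose was Cpt1a, which admits fatty acids to mitochondria, by 0.66 ± 0.06 (edgeR, adjusted p = 2.77e-06). All genes of these 6 lists named by the rule passed the edgeR test with an adjusted p of 0.00753 or less.

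**Figure D5:**
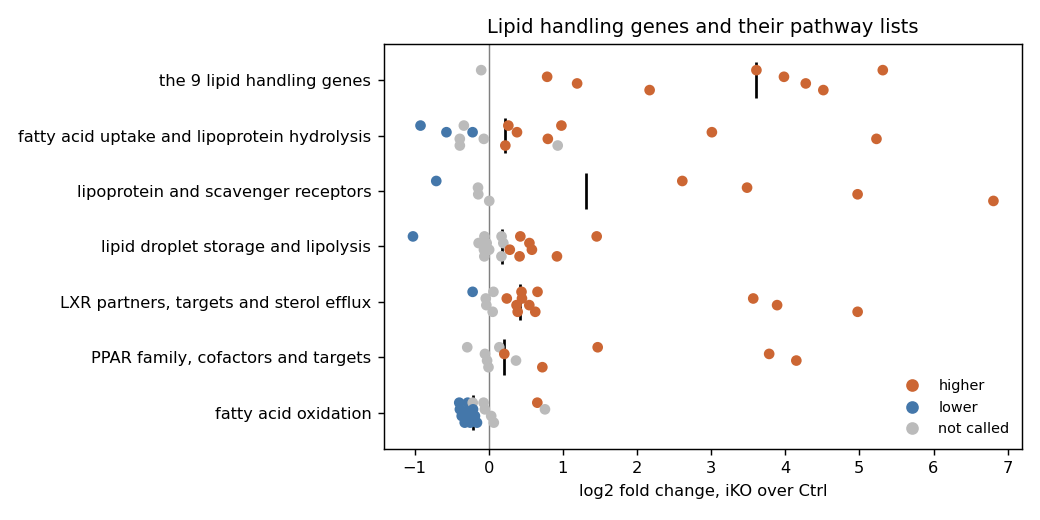
Log2 fold change (iKO over Ctrl) of the 9 lipid handling genes and of the tested genes of 6 related lists, 1 point a gene, coloured by call, with the median as a vertical line. The 9 genes have a median of 3.61, fatty acid oxidation is at -0.21, and the largest rise in the droplet list is that of Lipe (1.46), whereas the uptake, receptor, LXR and PPAR lists reach 5.23, 6.81, 4.98 and 4.15.

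The genes nearest in pattern over the 12 libraries were found by the root mean square difference of centred log2 CPM among 12419 protein-coding genes with a mean of at least 1 CPM. For Cd36 they were Fcer1g (0.25 log2 units) and Bcl2a1b (0.25), beside a SD of 2.83 of Cd36 itself. Bcl2a1b had 27 counts in Ctrl, shares 49.1% of its exon bases with Gm29094 and belongs to a family of near-identical copies, so its values are uncertain. For Abcg1 they were Tgfbi (0.26) and I830077J02Rik (0.33), for Lpl Rasa4 (0.29) and Il4ra (0.30), for Nr1h3 Nod2 (0.40) and Rbm47 (0.40) and for Pparg Arhgef3 (0.49) and Acp5 (0.52). Abca1 lay nearest to Serpinb9, a granzyme B inhibitor (0.21), and Stat2, an interferon signalling factor (0.21), whose log2 fold changes were 1.89 ± 0.15 and 2.11 ± 0.15 (SE). Plin2 lay nearest to Rcsd1 (0.073) and Rnh1 (0.11), Fabp4 to Sh3tc1 (0.26) and Tsc22d3 (0.31), and Fabp5 to Psma7 (0.057) and Akr1a1 (0.070). Plin2, Fabp4 and Fabp5 themselves had a SD of 0.48, 0.84 and 0.16. A small difference therefore partly reflects how little a gene varied. A shared change between the groups brings genes together in this measure.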

How the data were processed

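The authors deposited whole-number counts of reads per Ensembl gene, 1 column per library, with no scaling, on build mm10 per the submitters' processing notes. Aligner and counter: not given in the sources used here. Libraries were poly-T selected and kept no strand, per the labels' protocols. The deposited gene length column, of the class other, gives bases per gene and was used for levels per kilobase.

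Groups were compared with edgeR 4.0.16 in R 4.3.3 (quasi-likelihood test, robust, TMM, filter with minimum count 10 and minimum total 15, Benjamini-Hochberg adjustment over 16164 genes, threshold 0.05). The SE is the log2 fold change over the square root of F. Log2 ratios of 4 gene pairs (prior count 2) were compared by exact permutation over 924 assignments (smallest p 0.00216). Same-group libraries differed beyond sampling noise (chi-square per degree of freedom 7.47 or more). The fit was tested on simulated data. Alternatives used DESeq2 1.42.0, limma 3.58.1 voom, other scalings and filters, covariates and left-out libraries.

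The members and lists were chosen with earlier results of these data known. Named genes were the 9 members, up to 4 called genes with the smallest p from each of 6 pathway lists, Ptprc, Pecam1, Trex1, and for each member the 2 protein-coding genes nearest in pattern. A gene that this rule names is not reported here. Other genes were picked with their values known, as the text says at each. Ptprc, the CD45 gene, had a log2 fold change of 5.98, and 8.35 without Ctrl 5. The 6 marker lists (leukocyte, macrophage and monocyte, endothelial, adipocyte, fibroblast, pigment cell) describe the cells present. Levels per 100 CPM of macrophage markers were computed after the data were seen. A label names the library source as single cell, but the table has 1 column per library.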

Additional observations from a re-analysis of the deposited data

Results flagged for a closer look

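In groups of 6 libraries a value was singled out where its gap to the nearest library exceeded 0.625 of the group's range, which chance gives in about 1 of 20 groups. This held for 5 of the 18 groups of the 9 genes. The rate of 1 in 20 is for normally distributed values in independent groups. The 18 groups come from the same 12 libraries, so 5 of 18 cannot be read against that rate. Ctrl 5 was high in 4 of them: Cd36 at 16.7 CPM against 2.27 in the next library, Abcg1 at 4.72 CPM against 1.25, Lpl at 34.1 CPM against 11.97 and Plin2 at 203 CPM against 166. iKO 1 was low for Nr1h3, at 1.68 CPM against 10.2 in the next library. The macrophage markers were also high in Ctrl 5 (331 CPM) and low in iKO 1 (236 CPM) for their group.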

How the results depend on the processing

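The 8 rises and the absence of a call for Fabp5 kept direction and call under RLE size factors, library totals, no filter, DESeq2, limma voom, the endothelial score, both left-out pairs of libraries and each single left-out library (members higher 8 to 8, members lower 0 to 0). Leaving out Ctrl 5 and iKO 1 widens the gap between the groups by its choice and is no independent support. With the leukocyte score as covariate 0 members were higher and 1 lower, and log2 fold changes were 0.035 for Pparg, 0.71 for Nr1h3, 0.40 for Lpl, 0.68 for Abcg1, 1.29 for Abca1, -0.72 for Cd36, -0.75 for Fabp4 and -0.15 for Plin2. Over all genes, 973 were then higher and 1049 lower, against 4037 and 3464 without it. That model turned the direction of Vldlr (0.012), Msr1 (-0.39), Lipe (-0.16), Bscl2 (-0.14), Cebpb (-0.16), Cebpa (-0.44), Apoe (-0.53), Lpcat3 (0.015), Plin3 (0.12), Arl4c (-0.75), Smpdl3a (-0.018), Cyp27a1 (-0.44), Stab1 (-0.93), Pecam1 (-0.15), Acp5 (-0.033), Sh3tc1 (-0.39), Tsc22d3 (-0.037), Fcer1g (-0.19), Bcl2a1b (-1.15), Rcsd1 (-0.057) and Rnh1 (-0.14), none of them called there. Apoe was at -0.14 with the endothelial score, and without Ctrl 5 and iKO 1 Gpihbp1 was at 0.13 and Srebf1 at 0.0083, all without a call.

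Leaving out 1 library gave -0.81 to -0.47 for Pparg over Nr1h3 and 1.01 to 1.51 for Cd36 over Lpl. Without Ctrl 5 further log2 fold changes were Fcer1g 5.69, Bcl2a1b 8.29, Tgfbi 6.46, I830077J02Rik 7.53 and Rbm47 5.54. Lmf1, Med1 and Tek also lost their calls under some settings (edgeR, adjusted p = 0.0968 for Lmf1 with the endothelial score, 0.130 for Med1 without a filter and 0.179 for Tek in limma voom).

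With the replicate number as a block (replicate block), Pparg was at 4.16, Nr1h3 4.70, Lpl 3.59, Cd36 4.78, Fabp4 1.14, Fabp5 -0.10, Plin2 0.76, Abca1 2.11 and Abcg1 5.56, with 8 members higher. The block changed no call of the 9 genes or 4 ratios but ended those of Lmf1 (edgeR, adjusted p = 0.0758) and Tek (0.176), and 3489 genes were higher and 2984 lower. Same-numbered libraries correlated at 0.25, -0.051, -0.021, -0.025, 0.21 and -0.13, of which 2 were above 0.1. Whether the numbers pair the libraries was not tested. Depth limits Pparg and Nr1h3, which had as few as 6 and 2 counts in a Ctrl library.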
